A study of Mus musculus with 8 samples.

Results

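The matrix metalloproteinases (Mmp), the ADAMTS proteases (a disintegrin and metalloproteinase with thrombospondin motifs, Adamts) and the tissue inhibitors of metalloproteinases (Timp) were examined in mouse liver after knockdown of Eif4ebp3. Members were all genes whose symbol is Mmp or Adamts followed by a number, with a or b where present, or Timp1 to Timp4. They were 46 of 55536 genes with an identifier: 23 Mmp, 19 Adamts and 4 Timp genes. All 8 liver samples came from lean, wild-type C57BL/6 mice of 2 months that received 0.1 OD of an adenovirus and were killed 1 week later after a night without food. In the control group (n = 4) the virus carried a knockdown construct against lacZ, a bacterial gene, and in the knockdown group (n = 4) one against Eif4ebp3, which encodes a repressor of cap-dependent translation. How many hairpins were used is not stated in the labels, nor is which liver cells took up the virus. The question addressed was which members differed in transcript level between the groups.

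MMPs are zinc-dependent endopeptidases, made as inactive proenzymes, that are secreted or anchored in the cell membrane and cut collagens, laminins, elastin and many other extracellular proteins. ADAMTS enzymes are secreted relatives that cut proteoglycans such as versican and aggrecan, remove propeptides from procollagens or cleave von Willebrand factor. TIMPs bind the active site of these enzymes. In injured liver, stellate cells and macrophages are known sources of several MMPs and of TIMP1. In the authors' annotation 22 of the 23 Mmp genes carry the catalytic domain of family M10 (all but Mmp1a) and 20 a hemopexin domain, which Mmp1a, Mmp7 and Mmp23 lack. All 19 Adamts genes carry a reprolysin and a thrombospondin domain, and all 4 Timp genes the inhibitor domain.

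Of the Mmp genes, 10 lie next to each other on chromosome 9, from 7272514 to 7699585 of the mm10 assembly, in the order Mmp13, Mmp12, Mmp1b, Mmp3, Mmp1a, Mmp10, Mmp8, Mmp27, Mmp20 and Mmp7. Their promoters are shown because they shared a sequence that the choice of members did not use. RefSeq promoter windows (GRCm38.p6, 250 bases before and 50 after a start site) were found for 32 of the 46 members, in 35 windows. The binding sequence of AP-1, the Fos and Jun transcription factor, was searched as TGANTCA, which reads the same on both strands. It was present in 8 of the 35 windows (22.9%), against 7.81% of 32851 windows of the same length. All 8 belonged to the 10 genes of the cluster and none to the other 22 members with a window. Each line gives the match in capitals with 20 bases on either side, 5′ to 3′ on the strand of the gene.
Mmp13: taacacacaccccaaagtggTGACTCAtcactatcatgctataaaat
Mmp12: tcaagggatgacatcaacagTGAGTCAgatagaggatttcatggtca
Mmp1b: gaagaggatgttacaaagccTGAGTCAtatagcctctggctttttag
Mmp3: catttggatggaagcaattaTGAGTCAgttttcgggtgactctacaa
Mmp1a: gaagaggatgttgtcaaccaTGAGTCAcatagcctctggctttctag
Mmp10: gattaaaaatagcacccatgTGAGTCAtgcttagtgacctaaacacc
Mmp20: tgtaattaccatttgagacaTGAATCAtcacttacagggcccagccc
Mmp7: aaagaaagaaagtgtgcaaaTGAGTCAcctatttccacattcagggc
The match began 35 bases before the start site in Mmp13 (chr9:7272459-7272505), 44 in Mmp12 (chr9:7347310-7347356, at 1 of 2 annotated starts) and 46 in Mmp3 (chr9:7445756-7445802). It began 63 bases before in Mmp7 (chr9:7692007-7692053, also at 1 of 2 annotated starts) and in Mmp10 (chr9:7502259-7502305). In Mmp1a (chr9:7464048-7464094), Mmp1b (chr9:7388093-7388139, minus strand) and Mmp20 (chr9:7628116-7628162) it lay 73, 93 and 95 bases before. Mmp8 and Mmp27 held no match in these windows. The shorter sequence AGGAAG (PEA3, a site of ETS factors, searched on both strands) was found in 16 of the 35 member windows (45.7%) and in 35.4% of all windows, and no match of it overlapped one of TGANTCA. Among the 15 members that rose in the test described next and have a window, 3 held TGANTCA (Mmp7, Mmp12 and Mmp13) and 7 held AGGAAG. A match is a description of the sequence and not a measured site.

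Total estimated counts ranged from 24371461 to 32389444 per sample. Levels are given as CPM, the counts of a gene scaled to a common library size with TMM factors, and values of single samples follow replicates 1 to 4. Eif4ebp3 held 289, 216, 204 and 49.3 CPM in the controls and 9.62, 13.9, 37.2 and 19.5 CPM in the knockdown samples, so the groups did not overlap. Control replicate 4 was the lowest control for the target and the only control with the letter D in its sample code. It stood apart for several members below. The marker lists bear on the members because bulk RNA cannot tell a change in the number of cells from a change in RNA per cell. All 10 hepatocyte markers were detected, with summed levels of 67262.5 to 89479 CPM in the controls and 52129 to 67499 CPM in the knockdown samples, and 9 of them fell. The lowest control, replicate 4, lay below the highest knockdown sample, and the other 3 controls held 86086 CPM or more. Of 16 macrophage markers 14 rose (summed CPM 383 to 510 in the controls, 947 to 1131 in the knockdown samples). Of 15 stellate cell and fibroblast markers 11 rose (139 to 161 against 254 to 439). Of 13 T and NK cell markers 10 rose and 1 fell (16.2 to 30.2 against 46.4 to 63.4), of 10 cholangiocyte markers 5 rose and 1 fell (65.5 to 83.8 against 99.9 to 135), and of 6 mesothelial markers 2 rose, Lrrn4 and Krt8. Nearly all of the mesothelial sum (158 to 210 against 671 to 747) was Krt8, a keratin of many epithelia, while Msln, Upk3b and Wt1 were too low to test and Gpm6a did not pass. Of 10 neutrophil markers 1 rose (4.48 to 11.1 against 10.39 to 18.2), of 8 B and plasma cell markers 1 rose (6.58 to 12.2 against 9.86 to 13.6), and of 10 endothelial markers 1 rose and 2 fell (421 to 472 against 284 to 505). No marker was at 0 in all samples. Tested markers numbered 10 for hepatocytes, 15 for macrophages, 14 for stellate cells and fibroblasts, 12 for T and NK cells and 8 for cholangiocytes. For mesothelial, neutrophil, B and plasma, and endothelial cells they numbered 3, 6, 7 and 10. Of all 15375 genes tested, 29.5% rose and 27.8% fell. The part of these cells in the results on the members was not tested.

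Of the 46 members, 30 passed the filter on low counts and were tested with edgeR. Of these, 20 rose and 2 fell at an adjusted p under 0.05, and 8 did not pass. Among all 15375 genes tested, 29.5% rose and 27.8% fell, 57.2% in all. The authors' deposited table marks 17 of the 46 members as up and 1 as down, against 4.6% and 2.17% of all genes. Of the 30 tested members it marks 15 and 1, against 14.8% and 6.7% of the genes tested. The 2 groups had no overlap in 19 of the 30 members with higher and 1 with lower knockdown values, where the shares of all genes were 27.4% and 24.7%. The median log2 fold change was 1.00 for the tested members and -0.0032 for all genes. The filter admits genes that reach its level, 0.388 CPM before TMM scaling, in only 1 group, and a member admitted only through the knockdown samples had to be higher there. Of the 30, 22 reached that level in all 4 controls, of which 14 rose, 2 fell and 6 did not pass. The other 8 were Adamts12, Mmp7, Mmp9, Mmp13, Mmp17, Mmp28, Timp1 and Timp4, of which 6 rose. The scaling between samples affects all of these values. With total counts in place of TMM factors the median of all genes was 0.56, and 25 members rose and 1 fell, against 63.9% and 7.72% of all genes. The 5 that gained the call were Adamts5, Adamts6, Adamts7, Mmp9 and Mmp19. By family, 9 Mmp, 8 Adamts and 3 Timp genes rose, and the 2 that fell were Adamts genes.

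**Figure D1:**
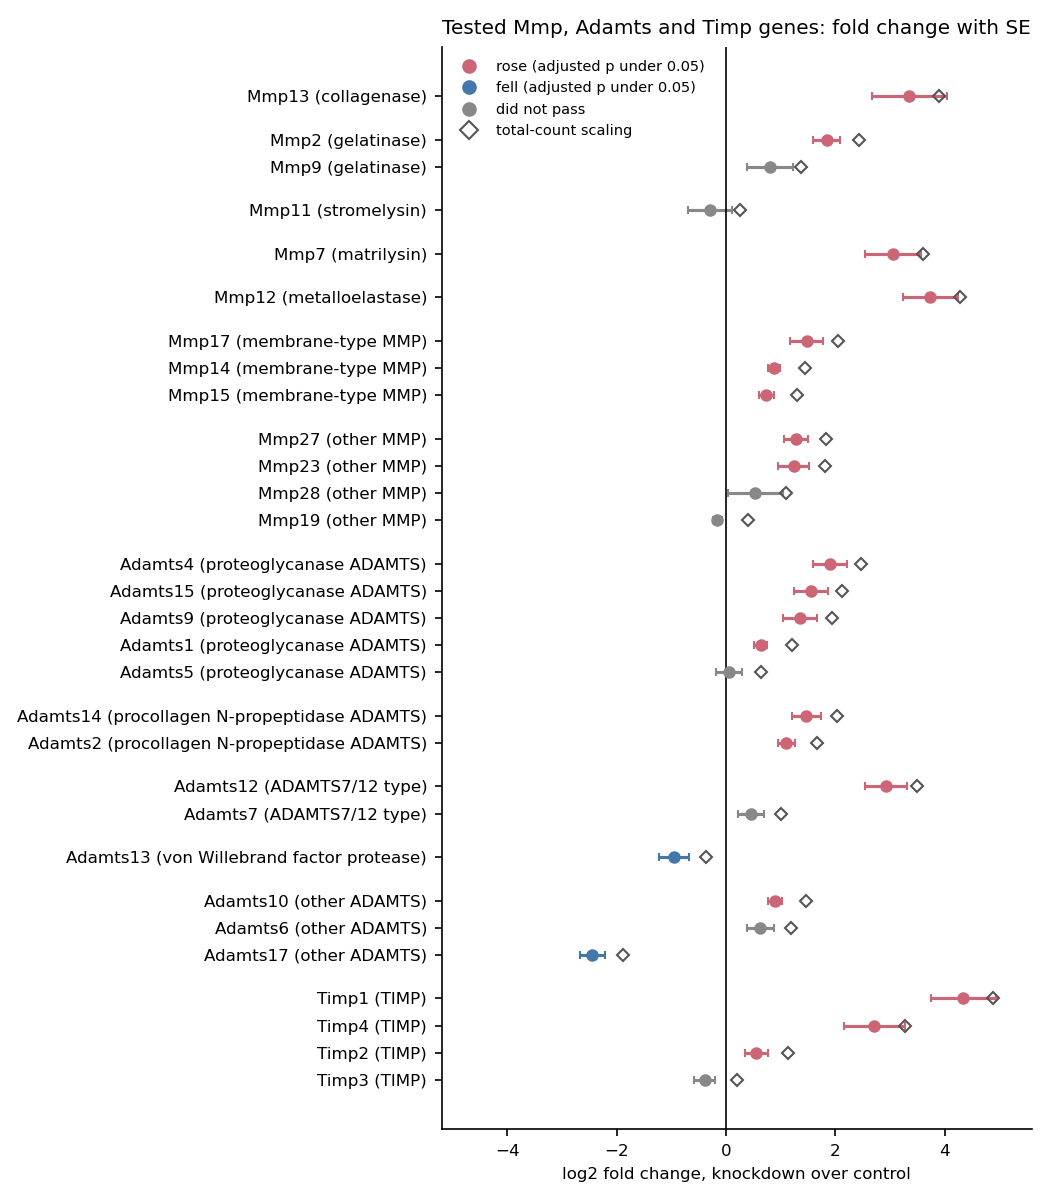
Log2 fold change of knockdown over control (x axis) for the 30 tested members, grouped by role; filled points are the edgeR values with their standard error and open diamonds the values under total-count scaling. Points of 20 members that rose lie right of 0, Adamts17 and Adamts13 lie left of it, and every diamond lies right of its point.

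The secreted proteases of the chromosome 9 cluster showed some of the largest differences. Mmp12, the macrophage metalloelastase (chromosome 9, 7344381 to 7369499), held 0.864, 2.24, 1.44 and 7.58 CPM in the controls and 52.8, 43.1, 24.5 and 44.1 CPM in the knockdown samples. It rose by 3.74 ± 0.50 (log2, SE), 13.4-fold, with an adjusted p of 9.72e-05. The lowest knockdown sample lay above the highest control, which was replicate 4, and without that control the log2 fold change was 4.75. Mmp13, the main interstitial collagenase of rodents (7272514 to 7283331), held 0.0961, 0.327, 0.206 and 2.38 CPM in the controls and 12.8, 6.83, 3.71 and 8.26 CPM in the knockdown samples. It rose by 3.36 ± 0.68, with an adjusted p of 0.00159, and by 5.20 without control replicate 4. For both genes control replicate 4 was the highest control and knockdown replicate 3 the lowest knockdown sample. In the same samples 14 of 16 macrophage markers rose. Control replicate 2 was the highest control for 8 of the 16. Control replicate 4 was so for 6, among them Gpnmb (2.33 against 1.39 to 1.6 CPM), Ccr2 (5.57 against 2.76 to 3.51 CPM) and Itgam (2.06 against 1.25 to 1.64 CPM). The summed macrophage level of control replicate 4, 463 CPM, lay inside the range of the other controls (383 to 510 CPM). That sample stood apart more in other lists. It was the highest control for 11 of 13 T and NK cell markers and 6 of 8 B and plasma cell markers. For 8 of 10 hepatocyte markers it was the lowest control.

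Mmp7, matrilysin, a small epithelial MMP without a hemopexin domain (7692090 to 7699585), held 2, 10, 3 and 1 counts in the controls and 30, 55, 51 and 85 in the knockdown samples. These were 0.191 ± 0.19 and 1.62 ± 0.512 CPM (SD, n = 4 each), a rise of 3.06 ± 0.51 with an adjusted p of 0.000427. Control replicate 2 held most of the control counts, and without it the log2 fold change was 4. Mmp27 (7571396 to 7581885) rose by 1.28 ± 0.22, from 1.49 ± 0.304 to 3.6 ± 0.669 CPM (adjusted p = 0.000511). The other 6 genes of the cluster did not pass the filter. Mmp8, the neutrophil collagenase, held 24 counts over the controls and 98 over the knockdown samples, and Mmp3, stromelysin 1, held 10 and 50. Mmp10 held 1 count in all 8 samples, and Mmp1a, Mmp1b and Mmp20 held 0. A count of 0 over all samples allows up to 3 counts, or 0.0138 CPM, counting error only. The 8 promoters with TGANTCA shown above thus belonged to 3 genes that rose, 1 with too few counts to test (Mmp3) and 4 with at most 1 count. The exons of Mmp12 and Mmp1b overlap on opposite strands, and Mmp1b was at 0.

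**Figure D2:**
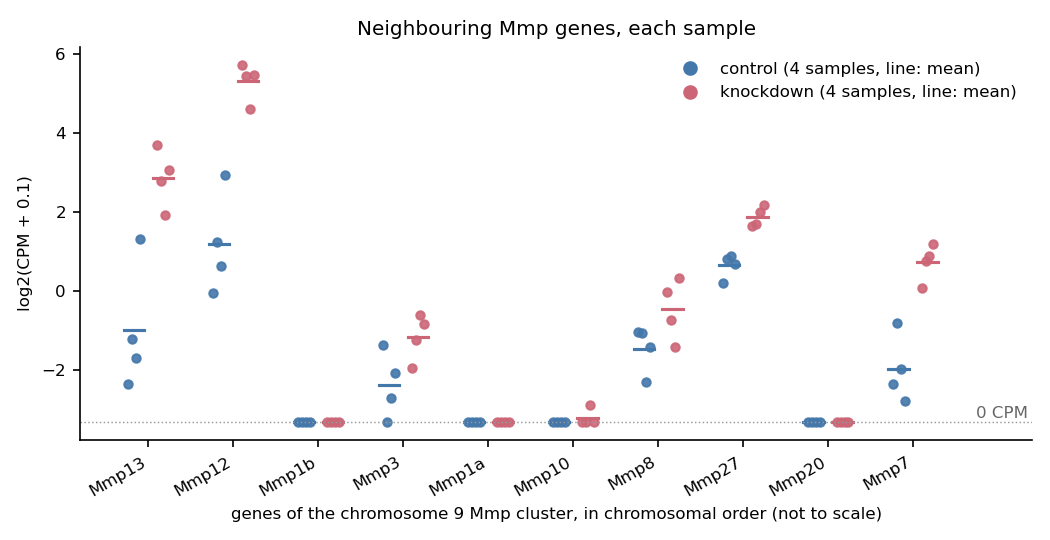
Log2(CPM + 0.1) of the 10 Mmp genes of the chromosome 9 cluster in chromosomal order, each point 1 sample (4 controls, 4 knockdown samples) and each line a group mean. Mmp13, Mmp12, Mmp27 and Mmp7 are separated between the groups, while Mmp1b, Mmp1a and Mmp20 lie at 0 CPM in every sample.

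The gelatinases differed from each other in the result of the test. Mmp2, which is mainly a product of stromal cells (chromosome 8, 92827291 to 92853420), held 3.65, 2.52, 4.01 and 2.28 CPM in the controls and 16.7, 9.1, 9.56 and 9.26 CPM in the knockdown samples. It rose by 1.84 ± 0.25, 3.58-fold (adjusted p = 0.000112), and knockdown replicate 1 was the highest sample. That replicate also had the highest summed level of stellate cell markers (439 CPM against 254 to 320 in the other knockdown samples). This was not particular to stellate cells. Its sums of macrophage, neutrophil, T and NK cell, endothelial, cholangiocyte and mesothelial markers were also the highest of the knockdown samples. Its hepatocyte sum was the lowest, and the B and plasma cell sum was highest in knockdown replicate 3. Mmp9, a product of neutrophils and macrophages, held 1.06, 0.935, 0.257 and 1.55 CPM in the controls and 2.27, 1.37, 0.997 and 2.05 CPM in the knockdown samples. The groups overlapped, and the difference of 0.80 ± 0.43 did not pass (adjusted p = 0.129), although it did without control replicate 4 (1.14, adjusted p = 0.0446) and under total-count scaling (1.37, adjusted p = 0.019). Control replicate 3, which held the least Mmp9, was the lowest control for the summed neutrophil markers (4.48 CPM) and for the summed macrophage markers (383 CPM). The difference between the 2 genes was not tested.

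Membrane-type MMPs include the activator of proMMP2. Mmp14, which encodes that activator, MT1-MMP (chromosome 14, 54431612 to 54445364), held 43.5, 46.1, 62.2 and 50.2 CPM in the controls and 93.9, 97.4, 90.7 and 88.3 CPM in the knockdown samples. It rose by 0.87 ± 0.11, 1.83-fold, with an adjusted p of 4.91e-05 and no overlap. Mmp15, a further transmembrane member (chromosome 8, 95352268 to 95375080), held 32, 44.9, 41 and 51 CPM against 80.9, 67.9, 75.8 and 57.8 CPM. It rose by 0.74 ± 0.14 (adjusted p = 0.00118), and control replicate 4 was the highest control and knockdown replicate 4 the lowest knockdown sample. Mmp17, anchored by glycosylphosphatidylinositol, rose by 1.48 ± 0.31 at a low level, from 0.564 ± 0.0987 to 1.58 ± 0.516 CPM (adjusted p = 0.00179). Mmp24 and Mmp25 held 7 and 8 counts over the controls and 44 and 46 over the knockdown samples, and Mmp16 held 1 and 6. None of these was admitted by the filter. Without any filter Mmp24 and Mmp25 had log2 fold changes of 1.93 and 1.83 (adjusted p = 0.0154 and 0.0256, edgeR), Mmp8 of 1.32 (adjusted p = 0.0449) and Mmp3 of 1.62 (adjusted p = 0.0761). In the authors' deposited table Mmp24 and Mmp25 are marked as significant with log2 fold changes of 1.49 and 1.40.

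Of the remaining MMPs, Mmp23, which has no hemopexin domain, rose by 1.24 ± 0.28, from 0.873 ± 0.349 to 2.06 ± 0.357 CPM (adjusted p = 0.00325). Mmp19, a basement membrane protease that held the largest share of Mmp transcripts in the controls, did not pass. Its levels were 61.7, 76.8, 69.5 and 75.3 CPM in the controls and 61.8, 62, 65.7 and 65 CPM in the knockdown samples, a difference of -0.15 ± 0.08 (adjusted p = 0.125). That difference passed as lower without control replicate 1 (-0.22, adjusted p = 0.0378), and under total-count scaling its sign turned and it passed as higher (0.41, adjusted p = 0.00378). Mmp11, stromelysin 3, differed by -0.30 ± 0.41 (adjusted p = 0.556) and had the opposite sign under total-count scaling (0.25). Its exons overlap those of the abundant gene Chchd10 on the other strand. Mmp28, epilysin, held 0.311 ± 0.283 and 0.451 ± 0.0883 CPM and did not pass (adjusted p = 0.388), but did so without control replicate 1 (1.34, adjusted p = 0.0283). Mmp21 held 5 counts in each group.

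**Figure D3:**
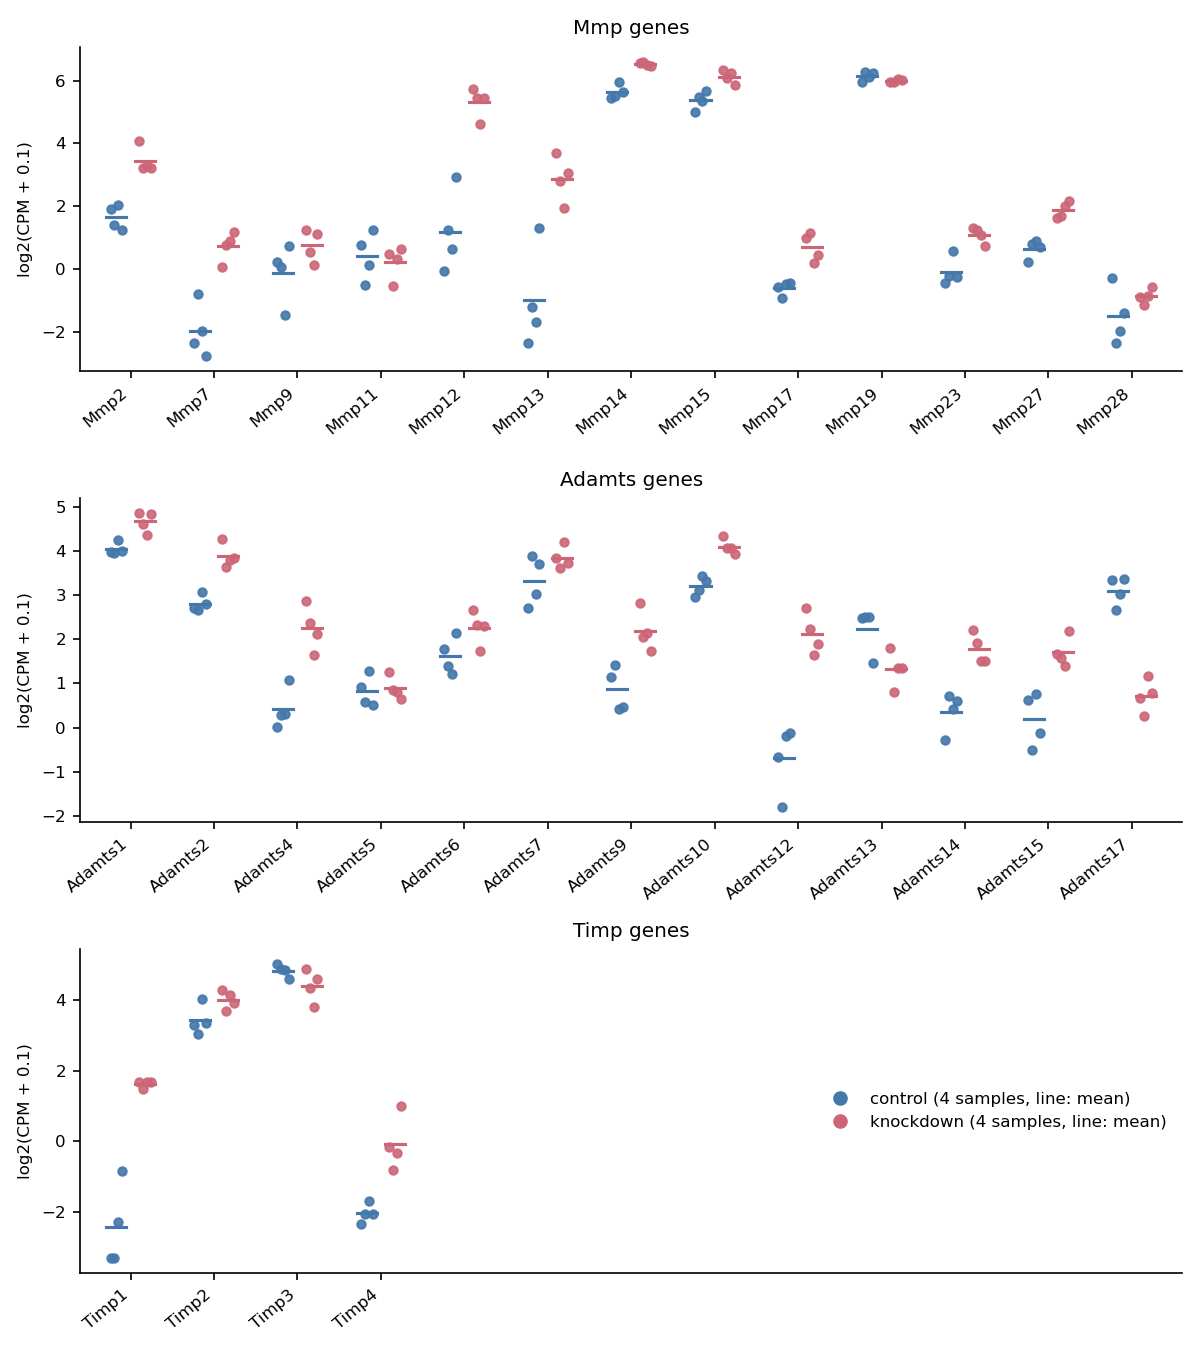
Log2(CPM + 0.1) of the 30 tested members, each point 1 sample and each line the mean of 4 samples. Control replicate 4 lies above the other controls for Mmp12, Mmp13 and Timp1, and the groups of Mmp19, Mmp11, Adamts5 and Timp3 overlap.

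Transcript abundance can be compared between members only per length, here CPM per kilobase (kb) of the gene length in the authors' table. The Mmp genes together held 53.7 ± 5.83 CPM per kb in the controls and 93.3 ± 6.08 in the knockdown samples (SD, n = 4 each), without overlap. In the controls Mmp19 made up 38.9 ± 2.75% of this sum, Mmp14 36.2 ± 4.19% and Mmp15 15.2 ± 1.65%, and the first 2 lay within each other's spread. In the knockdown samples Mmp14 made up 38.3 ± 2.26%, Mmp19 20.1 ± 1.83%, Mmp15 14.7 ± 1.93% and Mmp12 12.1 ± 2.96%, where Mmp12 had been at 1.49 ± 1.42%. Shares of this kind do not depend on the scaling between samples. The share of Mmp19 was 35.8 to 42.2% in the controls and 17.9 to 22.1% in the knockdown samples, and that of Mmp12 was 0.526 to 3.59% against 7.76 to 14.4%, so neither overlapped. The share of Mmp14 overlapped between the groups (33 to 42% against 35.5 to 40.3%).

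TIMP genes were all detected, and 3 of the 4 rose. Timp1, an inhibitor that is induced in activated stellate cells (chromosome X, 20870166 to 20874735), held 0, 0, 2 and 10 counts in the controls and 98, 93, 90 and 120 in the knockdown samples. It rose by 4.34 ± 0.59, 20.3-fold, from 0.14 ± 0.217 to 2.99 ± 0.192 CPM (SD, n = 4 each), with an adjusted p of 0.000104. Control replicate 4 held 10 of the 12 control counts, and without it the log2 fold change was 6.34, a fitted value that then rests on 2 control counts. The 4 knockdown samples lay between 2.7 and 3.1 CPM. Timp4 (chromosome 6, 115241892 to 115252205) held 2, 3, 4 and 3 counts in the controls and 25, 16, 20 and 74 in the knockdown samples, a rise of 2.72 ± 0.55 with an adjusted p of 0.00154. Knockdown replicate 4 was the highest sample, and without it the log2 fold change was 2.13. In the knockdown samples 11 of 15 stellate cell and fibroblast markers rose, and the list was split in control replicate 4, the control with the most Timp1. That sample was the highest control for 4 of the 15, Acta2 (4.57 against 1.3 to 2.62 CPM), Tagln, Thy1 and Ngfr, and the lowest for 6, among them Reln and Rgs5, which hold much of the summed level (139 CPM, the lowest control).

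Timp2, which inhibits MMPs and also takes part in the activation of proMMP2 by MT1-MMP (chromosome 11, 118301069 to 118355740), held 9.75, 8.13, 16.2 and 10.1 CPM in the controls and 19.5, 12.9, 17.6 and 14.9 CPM in the knockdown samples. The groups overlapped through control replicate 3, and Timp2 rose by 0.56 ± 0.20 with an adjusted p of 0.0358. Leaving out 1 of 5 samples (controls 1, 2 and 4, knockdown samples 1 and 3) ended this call, with log2 fold changes of 0.43 to 0.52, and leaving out any of the other 3 did not. Timp3, a matrix-bound inhibitor of MMPs, ADAMTS and ADAM proteases (chromosome 10, 86300372 to 86349506), held 32.8, 29.4, 28.8 and 24.3 CPM in the controls and 29.7, 20.1, 13.9 and 24.4 CPM in the knockdown samples. The groups overlapped, and the difference of -0.39 ± 0.19 did not pass (adjusted p = 0.111), was 0.20 under total-count scaling, and passed as lower without knockdown replicate 1 (-0.57, adjusted p = 0.024).

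Per length, Timp3 made up 66.1 ± 8.14% of the summed Timp level in the controls, Timp2 31.7 ± 6.78%, Timp1 1.91 ± 3.09% and Timp4 0.283 ± 0.0719%. In the knockdown samples the shares were 35.9 ± 7.04% for Timp3, 34.3 ± 4.86% for Timp2, 28.4 ± 3.37% for Timp1 and 1.347 ± 0.851% for Timp4. The shares of Timp3 (57.5 to 73.7% against 25.5 to 40.8%) and of Timp1 (0 to 6.48% against 24.1 to 32.2%) did not overlap between the groups, while those of Timp2 did. In the knockdown samples the levels of Timp3, Timp2 and Timp1, 4.66, 4.38 and 3.59 CPM per kb, lay within the spread of Timp3. The summed Timp level was 9.28 ± 1.04 CPM per kb in the controls and 12.8 ± 1.96 in the knockdown samples. As a ratio to the summed Mmp level it was 0.145 to 0.210 in the controls and 0.119 to 0.151 in the knockdown samples, ranges that overlapped.

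**Figure D4:**
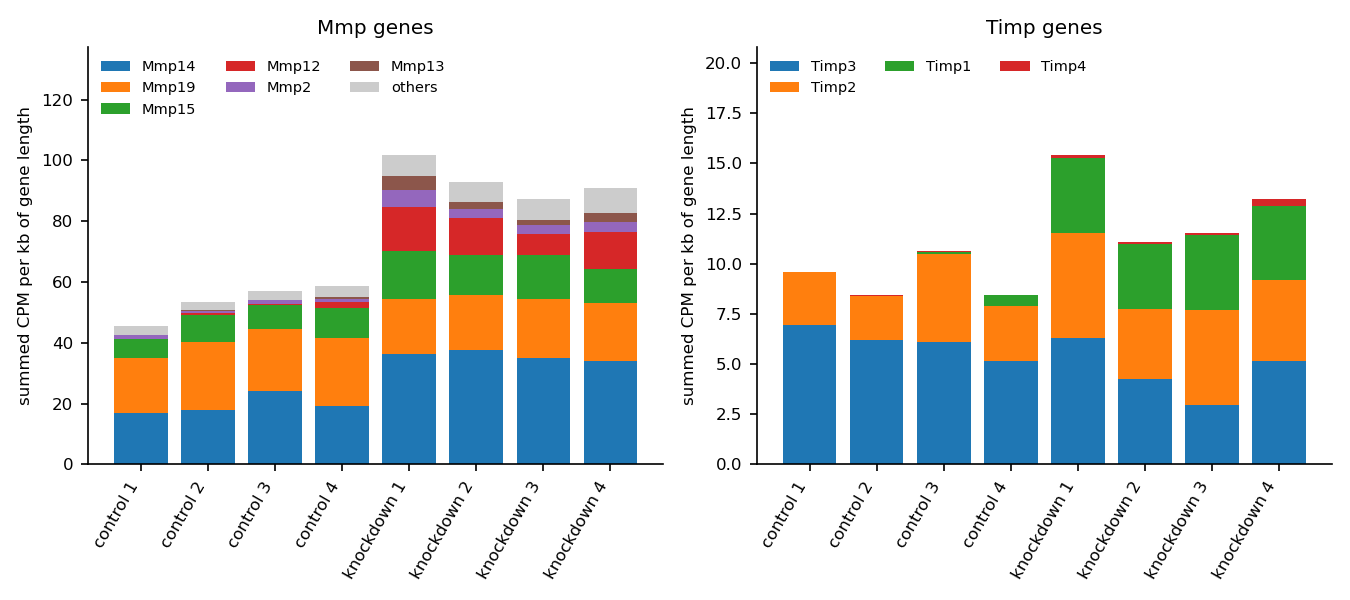
Summed CPM per kb of gene length in each of the 8 samples, divided by gene, for Mmp genes (left) and Timp genes (right). Mmp12 adds a visible part of the Mmp bar in the 4 knockdown samples, and Timp1 adds 24.1 to 32.2% of the Timp bar there.

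Of the proteoglycan-cleaving ADAMTS enzymes 4 of the 5 tested rose. Adamts4, aggrecanase 1 (chromosome 1, 171250421 to 171260637), held 0.913, 1.12, 1.13 and 2.01 CPM in the controls and 7.16, 5.09, 3.03 and 4.23 CPM in the knockdown samples. It rose by 1.91 ± 0.32, 3.75-fold (adjusted p = 0.00041). Without knowledge of the strand setting its level is uncertain. Adamts1, which cleaves versican and aggrecan (chromosome 16, 85793827 to 85803113) and was per length the most abundant Adamts gene in both groups, held 15.7, 15.4, 19.0 and 15.9 CPM against 29.0, 24.2, 20.3 and 28.7 CPM. It rose by 0.63 ± 0.13 with an adjusted p of 0.00136, and knockdown replicate 3 lay just above control replicate 3. Adamts15 rose by 1.55 ± 0.31 (1.12 ± 0.476 to 3.24 ± 0.843 CPM) and Adamts9, which carries the GON domain, by 1.36 ± 0.30 (1.8 ± 0.654 to 4.64 ± 1.64 CPM), with adjusted p of 0.00146 and 0.00293. Adamts5, aggrecanase 2, lies next to Adamts1 on chromosome 16 (85856173 to 85901828) and did not pass, with 1.71 ± 0.453 and 1.78 ± 0.348 CPM (adjusted p = 0.85), but passed as higher under total-count scaling (0.64, adjusted p = 0.0374). Adamts8 held 4 and 10 counts in the groups and Adamts20 a single count, in knockdown replicate 1. In the same samples the proteoglycan gene Vcan was among the 13 of 23 matrix substrate genes that rose.

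Procollagen N-propeptidases trim the amino-terminal propeptide so that fibrillar collagen can assemble. Adamts2 (chromosome 11, 50602084 to 50807573), which processes procollagen I, held 6.39, 6.22, 8.23 and 6.81 CPM in the controls and 19.1, 12.2, 13.8 and 14.1 CPM in the knockdown samples. It rose by 1.10 ± 0.16, 2.14-fold (adjusted p = 0.000136). Adamts14, its close relative, rose by 1.47 ± 0.27, from 1.23 ± 0.362 to 3.43 ± 0.861 CPM (adjusted p = 0.000785). For both genes knockdown replicate 1 was the highest sample and the groups did not overlap. Adamts3, the third enzyme of this type, held 23 and 25 counts and was not tested.

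Adamts12, which cleaves cartilage oligomeric matrix protein, had the largest fold among the tested Adamts genes. It held 0.528, 0.187, 0.772 and 0.822 CPM in the controls and 6.41, 4.62, 3.03 and 3.59 CPM in the knockdown samples, and rose by 2.93 ± 0.38, 7.61-fold (adjusted p = 7.14e-05). Its structural relative Adamts7 held 6.39, 14.6, 8.08 and 12.9 CPM against 14.1, 12, 18.2 and 13.2 CPM, overlapped and did not pass (0.45 ± 0.24, adjusted p = 0.129). It passed without control replicate 2 (0.65, adjusted p = 0.0397). Adamts10, which binds fibrillin microfibrils, rose by 0.89 ± 0.13, from 9.2 ± 1.36 to 17.1 ± 2.05 CPM (adjusted p = 0.00017). Adamts6, closely related to Adamts10, lay at the threshold, with a difference of 0.63 ± 0.25 and an adjusted p of 0.051 in edgeR. Its adjusted p was 0.0344 in DESeq2 and 0.0395 in the authors' deposited table. Control replicates 1 and 4, with 3.31 and 4.29 CPM, overlapped the knockdown samples (3.2 to 6.18 CPM).

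The 2 members that fell were Adamts17 and Adamts13. Adamts17 (chromosome 7, 66839735 to 67153171), a gene of connective tissue whose product is related to fibrillin biology, held 10, 6.22, 7.98 and 10.2 CPM in the controls and 1.48, 1.1, 2.13 and 1.62 CPM in the knockdown samples. The groups were clearly apart, and it fell by 2.44 ± 0.23 on the log2 scale, 5.44-fold, with an adjusted p of 8.54e-06. It remained lower under total-count scaling (-1.89, adjusted p = 4.09e-05). Adamts13, the protease that cleaves von Willebrand factor and is made in the liver by stellate cells (chromosome 2, 26973416 to 27009628), held 5.48, 5.56, 5.56 and 2.65 CPM in the controls and 3.41, 1.66, 2.44 and 2.44 CPM in the knockdown samples. It fell by 0.95 ± 0.28 (adjusted p = 0.0127), with control replicate 4 inside the range of the knockdown samples. Under total-count scaling the difference was -0.37 and did not pass (adjusted p = 0.242). Its substrate gene Vwf held 11.03 and 8.84 CPM on average and did not pass (adjusted p = 0.104), while 11 of 15 stellate cell and fibroblast markers rose. Adamts16 held 2 and 10 counts in the groups, and Adamts18 and Adamts19 held 0 in all samples.

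Genes that act with these families were read from the same fit as a list of 83 in 6 groups. Of these, 46 rose, 13 fell, 11 did not pass and 13 were not tested. Of all genes tested, 29.5% rose and 27.8% fell. The median log2 fold change of the 70 tested was 0.97 (the same with Mep1a and Fosl1, which had 0 control counts, at their lower bounds). Under total-count scaling 55 rose and 4 fell, against 63.9% and 7.72% of all genes. The groups below held 9, 6, 15, 5, 18 and 17 tested genes, in the order given. Mep1a, A2m, Fosl1, Areg and Lif were among those admitted by the filter only through the knockdown samples. A gene admitted that way had to be higher there. In the plasminogen system, whose product plasmin activates several proMMPs, 6 of 10 genes rose and 3 fell. Plat, tissue plasminogen activator, rose from 0.534 ± 0.256 to 31.7 ± 8 CPM, a difference of 5.87 ± 0.29 with an adjusted p of 2.59e-07. Anxa2, a plasminogen co-receptor, rose from 8.85 ± 3.01 to 107 ± 20.3 CPM. Plg, plasminogen itself and a hepatocyte product, fell from 2511 ± 120 to 1072 ± 123 CPM. The 3 that fell were Plg, Serpinf2 and Serpine2, and Serpinf2 and Serpine2 lost the call under total-count scaling (adjusted p = 0.177 and 0.0545), and the activators Plat and Plau and the receptor Plaur were among those that rose.

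Of the 6 other inhibitors and clearance genes, 5 fell and 1 rose. Mug1, murinoglobulin, a plasma inhibitor that traps proteases, fell from 11598.5 ± 2794 to 1220 ± 184 CPM, and Pzp, the mouse alpha-macroglobulin, from 5047 ± 562 to 2095 ± 174 CPM. Mug1 has close copies in the genome that can share reads, so its value is uncertain. Tfpi2 fell by 0.46 ± 0.09, but its difference was 0.11 under total-count scaling. The others that fell were the MMP regulator Reck, whose groups overlapped (adjusted p = 0.0487, and 0.576 under total-count scaling), and the endocytic receptor Lrp1 (0.10 under total-count scaling). A2m rose (adjusted p = 0.0383, edgeR), with 10 counts over the controls, 65 over the knockdown samples and overlapping groups. In the same samples 9 of 10 hepatocyte markers fell. Of 18 ADAM, astacin and proprotein convertase genes 8 rose and 4 fell. Bmp1, which removes the carboxy-terminal propeptide of procollagen, fell by 1.21 ± 0.09, from 254 ± 18.9 to 110 ± 10 CPM, while Adam8 and Adam15 rose by 2.84 ± 0.33 and 0.89 ± 0.11. Besides Bmp1, the genes that fell were Adam9 and the convertases Furin and Pcsk7, whose differences turned to 0.19, 0.18 and 0.19 under total-count scaling.

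Of 6 ADAMTS-like genes, whose products lack the protease domain, 4 rose and 0 fell. Adamtsl5, Adamtsl2 and Adamtsl4 rose by 1.22 ± 0.22, 0.82 ± 0.16 and 0.68 ± 0.22. The call of Adamtsl4 was lost without knockdown replicate 4 (0.58, adjusted p = 0.0614). Of 23 matrix substrates 13 rose and 1, Fn1, fell, a call that was lost under total-count scaling (-0.02, adjusted p = 0.871). Nid1, a basement membrane linker, rose from 19.8 ± 0.446 to 181 ± 39.1 CPM, Col3a1 from 27.8 ± 8.16 to 246 ± 70.4 CPM and Col4a1 from 58.6 ± 3.43 to 204 ± 34.9 CPM (adjusted p at most 2.31e-06, edgeR). Of 20 inducers and transcription factors of MMP genes 14 rose and 0 fell at an adjusted p under 0.05 (edgeR). Ets2 rose by 1.54 ± 0.13 and Tgfb1 by 1.08 ± 0.12. Lif, a cytokine, rose by 5.21 ± 0.58, or by 7.64 without control replicate 4, the highest control. Over the controls Lif held 9 counts, 8 of them in replicate 4, Areg held 1 and Fosl1 0. All were admitted by the filter only through the knockdown samples, so a rise was the only possible call. The AP-1 subunit genes of the list, Fos, Fosl1, Fosl2, Jun and Junb, were among those that rose. Control replicate 4 held 75.8 CPM of Jun, against 13.3 to 25.6 in the other controls and 76.5 to 83.6 in the knockdown samples, and the adjusted p of Jun in the authors' deposited table was 0.0529. The groups of Junb overlapped through the same control (39.6 CPM, against 37.2 in the lowest knockdown sample). The part of macrophage and stellate cell content in these counts was not tested.

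**Figure D5:**
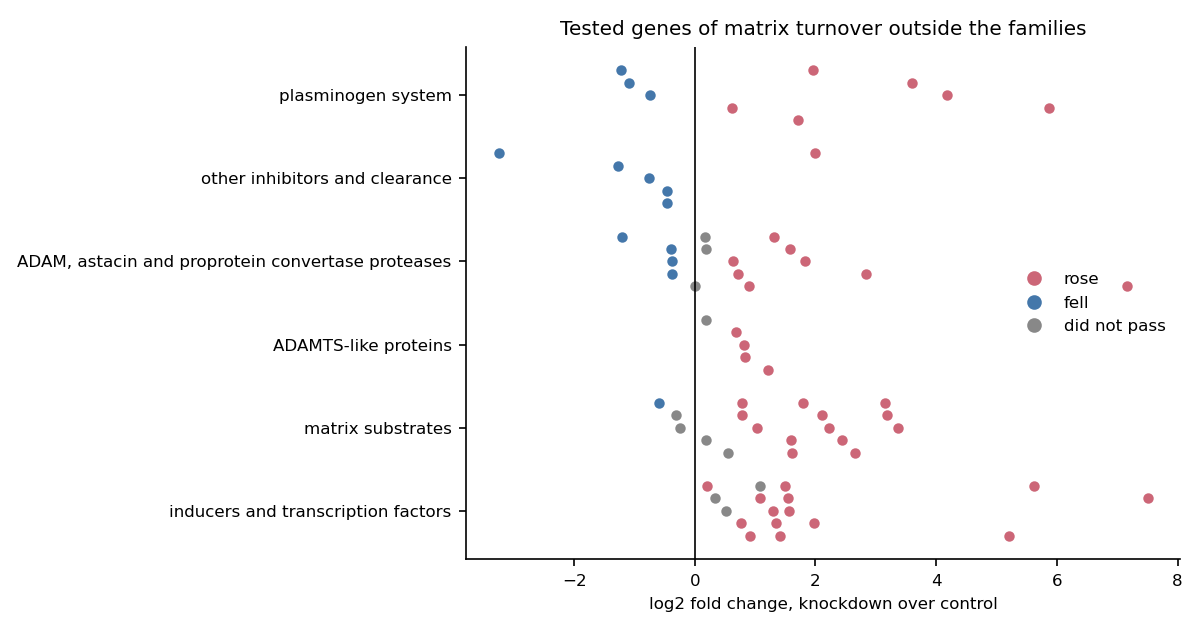
Log2 fold change of knockdown over control for each tested gene of 6 groups of matrix turnover genes outside the families, coloured by the result of the test. All 6 inhibitors and clearance genes except A2m lie left of 0, and no gene of the inducer group fell; the values of Mep1a and Fosl1 (rightmost in their rows) have 0 control counts and depend on the prior count.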

How the data were processed

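RNA of 8 liver samples (4 control, 4 knockdown) was depleted of ribosomal RNA, per the labels' protocols. The authors deposited estimated counts per gene (expected counts, some not whole), which were rounded here. The mm10 build, SAMtools 1.9, GATK 3.8, Bowtie2 2.2.9 and fastp 0.19.5 are named per the submitters' processing notes. Neither the counting program nor the annotation or strand setting is given in the sources used here. A second table that the authors deposited holds their comparison, with a fold change (ratio), its log2 value, p-values and gene lengths, per the file headers. Columns were assigned by the code in each sample's label, and 645 assembled loci (0.676 to 1.08% of counts) were left out.

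All genes were fitted in R 4.3.3 with edgeR 4.0.16 (filterByExpr, TMM factors, glmQLFit and glmQLFTest, without covariates), with p-values adjusted by Benjamini-Hochberg over 15375 genes. "Rose" and "fell" mean an adjusted p under 0.05. The SE is the log2 fold change divided by the square root of F. Alternatives were DESeq2 1.42.0, limma-voom (limma 3.58.1), other factors, filters, covariates and samples. The fits were checked on simulated data in which few genes were changed, as many up as down. That check does not test the scaling between samples. The labels do not say whether samples are separate animals. The p-values describe variation between samples, which may be technical, and replicates differed by more than counting error (chi-square per degree of freedom at least 8.94). The members, lists and motifs were chosen with earlier results of these data known. All members with their values and, per partner group, the 3 changed genes with the smallest p were named by rule. The marker genes, the other partner genes and the Syn genes were named after their values were seen. Positions are from GENCODE mouse release M21 and promoters from RefSeq. No window was used for Adamts4 to Adamts8, Adamts10, Adamts15, Adamts16, Adamts19, Mmp2, Mmp9, Mmp16, Mmp17 and Mmp19. Some items are not reported here.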

Additional observations from a re-analysis of the deposited data

Results flagged for a closer look

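In 98 groups of 4 samples (49 named genes), 10 held a sample far from the other 3, where chance gives about 1 in 20 groups. Control replicate 4 was that sample for 4 genes. It held 2.65 CPM of Adamts13 (5.48 to 5.56 in the other controls), 2.38 CPM of Mmp13 (0.0961 to 0.327), 0.914 CPM of Plat (0.374 to 0.463) and 0.365 CPM of Lif (0 to 0.0467). In each case it lay on the side of the knockdown samples, and it was also the control with the least Eif4ebp3 (49.3 CPM). Control replicate 3 held 19 CPM of Adamts1 (15.4 to 15.9) and 1.39 CPM of Mmp23 (0.624 to 0.748). Knockdown replicate 1 held 16.7 CPM of Mmp2 (9.1 to 9.56) and 10.9 CPM of Adam15 (9.22 to 9.48). Knockdown replicate 2 held 2.7 CPM of Timp1 (3.08 to 3.1), and knockdown replicate 3 held 1260 CPM of Plg (989 to 1020).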

How the results depend on the processing

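For the 30 tested members, 532 of 568 values under the alternatives kept direction and side of the threshold, and 18 members did so under every alternative. The number of members that rose was 17 to 25 and the number that fell 1 to 3 over all alternatives. Under total-count scaling 1 member and 4 partner genes fell, and with a minimum fold of 1.5, 1 and 5. These were the settings in which the counts moved by more than 1.5 times. Leaving out each sample in turn gave 20 to 22 members that rose and 2 to 3 that fell, and 42 to 50 partner genes that rose and 12 to 13 that fell. The replicate numbers gave no pairing (correlations of deviations -0.175, -0.0328, 0.0594 and 0.174 for numbers 1 to 4, with 1 of 4 numbers agreeing best with itself). With the replicate block 22 members rose and 2 fell, and 44 partner genes rose and 13 fell. The letter of the sample code (C or D), used as a covariate, gave 21 and 2 members, and the samples coded C alone 20 and 2. Signs turned for genes that did not pass: Mmp11 (0.25), Mmp19 (0.41, which then passed) and Timp3 (0.20) under total-count scaling, Adamts5 without control replicate 2 (-0.03) or 4 (-0.05) or knockdown replicate 1, and Mmp11 without control replicate 4. Leaving out each sample in turn gave -0.0831 to 0.2358 for Adamts5 and -0.5472 to 0.0713 for Mmp11. Tfpi2, which fell, was at 0.11 under total-count scaling. With the minimum fold of 1.5, Adamts1, Adamts13, Mmp15 and Timp2 were no longer called, and Timp2 was also lost with the samples coded C alone (log2 fold change 0.56). The cause of these changes was not tested. The 16 members not tested had too few counts for the filter, and low depth and low expression cannot be told apart there.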

Other observations

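Of the 4 Timp genes, 3 lie in or over synapsin genes on the opposite strand: Timp1 within Syn1, with no shared exon base, while the exons of Timp3 and Timp4 overlap those of Syn3 and Syn2. Syn1 rose by 1.66 ± 0.32, from 0.547 ± 0.235 to 1.75 ± 0.335 CPM (SD, n = 4 each, adjusted p = 0.00119, edgeR), and Syn2 by 1.81 ± 0.40, from 0.145 ± 0.0582 to 0.513 ± 0.142 CPM (adjusted p = 0.00249). Syn3 held 0.989 ± 0.201 and 0.925 ± 0.38 CPM and did not pass (adjusted p = 0.817). Thus both members of the pairs Timp1 with Syn1 and Timp4 with Syn2 rose, and neither member of the pair Timp3 with Syn3 passed. Whether reads of one gene were counted for the other was not tested.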
